A study of Mus musculus with 10 samples.

Results

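Melanocyte identity is set by a small circuit of genes, and 8 of them were examined here: the transcription factor genes Mitf, Sox10, Pax3, Tfap2a and Lef1 and the receptor genes Mc1r, Kit and Ednrb. They were chosen by symbol, with earlier results of these data known, and all 8 were found among 29890 genes with an expression value. RNA was sequenced from 10 subcutaneous tumors of B2905-M4, a mouse melanoma cell line, grown in female C57BL/6 mice injected at 7 to 8 weeks of age. Cells of 5 tumors overexpressed Adamts7, which encodes a protease that cleaves matrix proteins outside the cell, and cells of the other 5 overexpressed a vector control (Vec). No immunotherapy was given in either group, per the labels, and all tumors derive from the same line, so tumors and not separately made lines are the replicates. Adamts7 tumors grew faster, and harvest followed size: per the design text, 2 Adamts7 tumors were taken on day 35, 3 of either kind on day 45 and 2 vector tumors on day 50. No day is tied to a tumor, so age and size at harvest cannot be told apart from the overexpressed gene. The sources used here do not name the promoter that drives Adamts7.

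In pigment cells, Sox10 and Pax3 act together on the melanocyte promoter of Mitf, and Mitf then switches on the genes of melanosomes and melanin synthesis. Mc1r, the receptor for melanocyte-stimulating hormone, raises cAMP and acts on the same promoter through CREB, while Lef1 carries Wnt signals to it. Kit, the receptor for stem cell factor, and Ednrb, an endothelin receptor, support the survival and migration of melanoblasts. In melanoma, loss of Mitf with retained Sox10 is a known form of dedifferentiation.

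The promoters of Mitf and Mc1r are shown because these 2 genes varied most among the 8 and their windows hold motifs of factors described here. RefSeq promoters on GRCm38.p6 were matched for 6 of the 8 genes, Mitf, Tfap2a, Lef1, Mc1r, Kit and Ednrb, in 13 windows, and the 250 bases before each start were read on both strands. Capitals mark CTTTGA (Lef1 and Tcf) and TGACGTC (cAMP response element) in Mitf, and CTTTGA, GCCNNNGGC (AP-2) and TCATGTG (the core of the M-box bound by Mitf) in Mc1r. TGACGTC and its reverse complement overlap in Mitf and form a single stretch.
Mitf, the most downstream of its 3 starts, which serves the melanocyte isoform, plus strand, chr6:97991533-97991782: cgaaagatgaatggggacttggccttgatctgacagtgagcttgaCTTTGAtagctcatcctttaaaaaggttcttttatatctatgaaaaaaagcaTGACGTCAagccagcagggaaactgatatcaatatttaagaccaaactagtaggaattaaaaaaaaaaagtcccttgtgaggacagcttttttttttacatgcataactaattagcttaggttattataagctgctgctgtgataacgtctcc
Mc1r, plus strand, chr8:123406832-123407081: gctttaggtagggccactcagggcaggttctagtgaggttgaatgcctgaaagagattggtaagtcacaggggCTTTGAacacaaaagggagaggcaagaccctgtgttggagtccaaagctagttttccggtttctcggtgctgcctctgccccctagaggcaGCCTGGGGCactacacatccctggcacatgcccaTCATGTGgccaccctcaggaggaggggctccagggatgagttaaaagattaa

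The TGACGTC of Mitf begins 153 bases before its start, and the TCATGTG of Mc1r begins 52 bases before its start. Among 32851 promoter windows of this length, 2.78% hold TGACGTC and 3.25% hold TCATGTG, while 13.8% hold CTTTGA and 13.7% hold GCCNNNGGC. CACGTG, the E-box found in 6.02% of windows, was matched in a window of Lef1, and CTTTGT, a Sox motif found in 16.5%, was matched in the same window, as was CTTTGA. GCCNNNGGC was matched in both windows of Kit and in that of Ednrb. Of the 13 windows, 7 held none of the 6 motifs, which says only that these letters are not there. Gene-level values do not separate the Mitf isoforms.

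Values are TPM, a transcript abundance scaled for gene length and library, so that levels of different genes can be set side by side. TPM keeps no depth, so how deeply each tumor was sequenced is unknown. The number of genes above 0 TPM lay between 21515 and 23859 per tumor. The level of Adamts7 itself in Adamts7 tumors 1 to 5 was 88.5, 96.0, 78.2, 74.8 and 18.2 TPM, against 6.49, 6.98, 28.3, 8.57 and 27.6 TPM in vector tumors 1 to 5, so the library labelled Adamts7 5 lay below vector tumors 3 and 5. Its log2 difference was 2.21 (SE 0.54, limma adjusted p = 0.104). It was 2.64 without Adamts7 tumor 5 (limma adjusted p = 0.0238) and 2.93 without vector tumors 3 and 5 (adjusted p = 0.0681). Those are the lowest Adamts7 tumor and the 2 highest vector tumors for this gene. Leaving either out must raise the difference, so these 2 p-values are not separate support. The authors' deposited comparison, for which DESeq2 is named, gave a log2 fold change of 2.32 for Adamts7 (adjusted p = 0.000817). Every direction below takes the label Adamts7 5 as given. Vector tumors 3 and 5 stood apart from the other 8 tumors in many of the genes described here. Differences of the 8 genes and medians of the gene lists are given with and without them, a setting added for the lists after the data were seen. These 2 tumors are the 2 lowest for 6 of the 8 genes and the 2 highest for Kit. Leaving them out must therefore lower those 6 differences and raise that of Kit. The values without them describe how much rests on these tumors and are not a separate test.

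Sox10 was the most abundant of the 8 genes in each of the 10 tumors, and its level fell within a narrow range in most of them. Sox10, an SRY-related factor needed for melanocytes and Schwann cells, was at 725, 705, 713, 714 and 494 TPM across Adamts7 tumors 1 to 5, against 742, 662, 269, 689.8 and 311 TPM in vector tumors 1 to 5. The lowest values were those of vector tumors 3 and 5, and the groups overlapped. Among the genes tested, those averaging 1 TPM or more, Sox10 stood at percentile 98.5 by mean level. The log2 difference, Adamts7 minus vector on the log2(TPM + 1) scale, was 0.44 (SE 0.30, limma adjusted p = 0.408). It was -0.07 (SE 0.14) without vector tumors 3 and 5.

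Mitf, the basic helix-loop-helix factor that directs pigment genes, varied more. It was at 222, 118, 167, 238 and 203 TPM across Adamts7 tumors 1 to 5, against 285, 266, 20.7, 185 and 53.0 TPM in vector tumors 1 to 5. Vector tumors 1 and 2 thus held the highest levels of all 10 tumors, and vector tumors 3 and 5 the lowest. The group means were 189.6 ± 48.0 TPM in Adamts7 tumors and 162 ± 121 TPM in vector tumors (SD, n = 5 each). The log2 difference was 0.74 (SE 0.65, limma adjusted p = 0.515), and it turned to -0.39 (SE 0.24, adjusted p = 0.547) without vector tumors 3 and 5.

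Pax3, a paired-box factor of the neural crest that acts with Sox10, was at 73.7, 58.9, 73.4, 65.6 and 62.8 TPM across Adamts7 tumors 1 to 5, against 62.1, 63.2, 23.1, 44.6 and 29.3 TPM in vector tumors 1 to 5. The 5 Adamts7 tumors lay close together, and only Adamts7 tumor 2 with 58.9 TPM and Adamts7 tumor 5 with 62.8 TPM fell below the highest vector tumor. The log2 difference was 0.68 (SE 0.26, limma adjusted p = 0.199), and 0.25 (SE 0.14, adjusted p = 0.516) without vector tumors 3 and 5. Under median-of-ratios scaling or quantile normalization, Pax3 did not overlap between the groups, as for 2.47% and 2.63% of all genes in the higher direction, and it did not pass.

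Tfap2a, which encodes the AP-2 alpha factor of neural crest and epidermis, was at 40.0, 33.7, 47.4, 45.7 and 62.3 TPM across Adamts7 tumors 1 to 5, against 57.7, 53.3, 27.6, 46.2 and 26.5 TPM in vector tumors 1 to 5. It was again lowest in vector tumors 3 and 5 and highest in Adamts7 tumor 5, which was low in Sox10. The log2 difference was 0.16 (SE 0.25, limma adjusted p = 0.734), and it turned to -0.21 (SE 0.19) without vector tumors 3 and 5. Of 9 keratinocyte markers with a value, 6 never reached 1 TPM, among them Krt5 and Krt14, and the summed level of the list was 2.15 to 16.5 TPM in Adamts7 tumors and 4.73 to 32.5 TPM in vector tumors. Most of that sum was Itgb4, the only keratinocyte marker with a mean of at least 1 TPM (log2 difference -0.50, SE 0.56, limma adjusted p = 0.614).

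**Figure D1:**
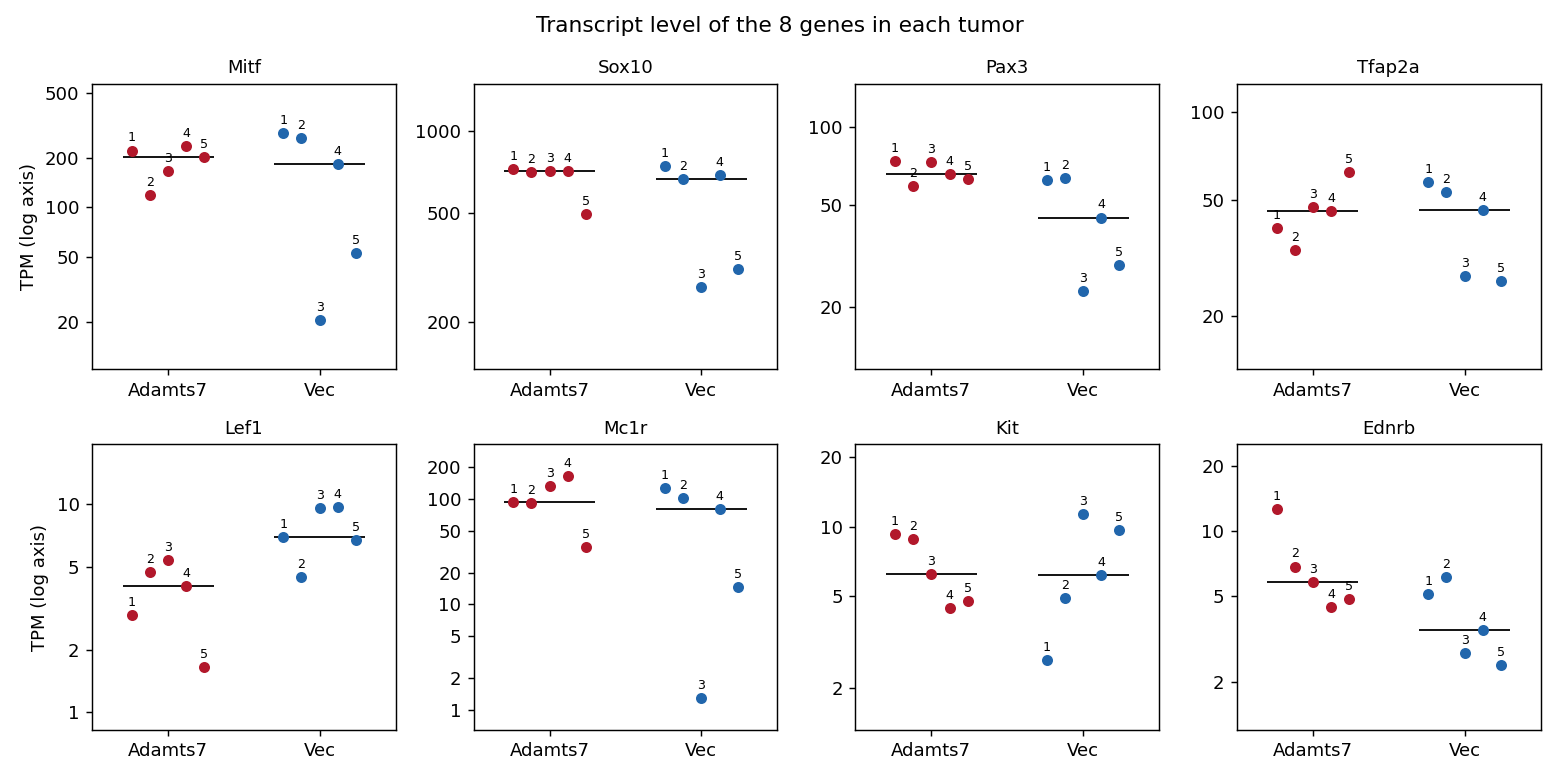
TPM on a log axis of the 8 genes in Adamts7 tumors (left, red) and vector tumors (Vec, right, blue), with tumor numbers at the points and a line at the median of 5 tumors. Vector tumors 3 and 5 are the 2 lowest of 10 for Mitf, Sox10, Pax3, Tfap2a, Mc1r and Ednrb, and Lef1 is lower in most Adamts7 tumors.

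Lef1 was the only one of the 8 genes with a negative difference. Lef1, a partner of beta-catenin in Wnt signaling, was at 2.93, 4.74, 5.41, 4.03 and 1.65 TPM across Adamts7 tumors 1 to 5, against 6.98, 4.46, 9.59, 9.71 and 6.72 TPM in vector tumors 1 to 5. Adamts7 tumors 2 and 3 lay above vector tumor 2, and all other Adamts7 tumors lay below all vector tumors. The means were 3.75 ± 1.49 TPM in Adamts7 tumors and 7.49 ± 2.20 TPM in vector tumors (SD, n = 5 each), and the log2 difference was -0.86 (SE 0.27, limma adjusted p = 0.149). Without vector tumors 3 and 5 it was -0.77 (SE 0.33, adjusted p = 0.384).

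Lef1 is also made by T cells, so T cell markers are given beside it. Summed over 12 markers, the level was 27.6 to 61.5 TPM in Adamts7 tumors and 62.0 to 606 TPM in vector tumors, and no marker was at 0 in all tumors. All 12 had negative log2 differences with a median of -1.79, and -0.80 without vector tumors 3 and 5. In either set 0 of 12 passed over all genes. With all tumors 4 did not overlap between the groups, against 3.78% of all genes tested in the lower direction. Cd8a and Cd8b1, the chains of the CD8 coreceptor, had log2 differences of -2.34 (SE 0.64, limma adjusted p = 0.121) and -2.07 (SE 0.58, adjusted p = 0.126), and of -1.19 and -1.07 without vector tumors 3 and 5. The T cell sums were 61.5, 36.9, 38.9, 27.6 and 27.9 TPM across Adamts7 tumors 1 to 5, against 62.0, 90.6, 606, 67.4 and 459 TPM in vector tumors 1 to 5. Vector tumor 3, with the highest sum, had the second highest Lef1 level, and vector tumor 4, with the highest Lef1 level, had a sum near the low end of the vector tumors. The part of T cells in the Lef1 difference was not tested. Fewer cells of a type and less RNA per cell cannot be told apart in these bulk samples.

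Mc1r, the melanocortin receptor, had the widest range of the 8 genes. It was at 93.8, 92.0, 132, 165 and 35.2 TPM across Adamts7 tumors 1 to 5, against 126, 101, 1.29, 81.0 and 14.7 TPM in vector tumors 1 to 5, a 128-fold span. Vector tumors 3 and 5 were again lowest, and Adamts7 tumor 5 was the next lowest. The log2 difference was 1.5 (SE 1.01, limma adjusted p = 0.398), and it turned to -0.13 (SE 0.44, adjusted p = 0.932) without vector tumors 3 and 5.

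Kit, the tyrosine kinase receptor for stem cell factor, took another order. It was at 9.30, 8.85, 6.25, 4.46 and 4.76 TPM across Adamts7 tumors 1 to 5, against 2.65, 4.89, 11.3, 6.16 and 9.70 TPM in vector tumors 1 to 5. Vector tumors 3 and 5, lowest for 6 of the other genes, were here the 2 highest, and the groups overlapped over most of their range. The log2 difference was 0.04 (SE 0.33, limma adjusted p = 0.958) and 0.48 (SE 0.30, adjusted p = 0.552) without those 2 tumors. Leaving out Adamts7 tumor 1 or 2, or vector tumor 1 or 2, turned its sign, with values of -0.08, -0.06, -0.21 and -0.04.

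Mast cells also carry Kit, and their markers were present in every tumor. The sum over 10 mast cell markers was 76.7 to 322 TPM in Adamts7 tumors and 139 to 279 TPM in vector tumors, and none of the 10 was at 0 in all tumors. Vector tumors 3 and 5 held sums of 183 and 279 TPM, while Adamts7 tumors 1, 2 and 4 held the 3 highest, 322, 312 and 311 TPM. Tpsb2 alone gave 162.8, 162.5 and 169 TPM of these 3 sums. Mcpt4, Cma1, Fcer1a, Ms4a2 and Mrgprb2 instead peaked in vector tumor 5, where Kit was also high. Cpa3, Tpsb2, Tpsab1, Hdc and Gata2 peaked in other tumors. Apart from Fcer1a and Gata2, these markers were named after their values were seen. Of 9 tested markers, 2 had positive and 7 negative log2 differences, with a median of -0.10, and 0 passed. The median was 0.13 without vector tumors 3 and 5. Fcer1a, a chain of the IgE receptor, had a difference of -0.85 (SE 0.32, limma adjusted p = 0.196) and Gata2, a factor of mast cells and blood progenitors, one of 0.69 (SE 0.30, adjusted p = 0.233). The part of mast cells in the Kit level was not tested.

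**Figure D2:**
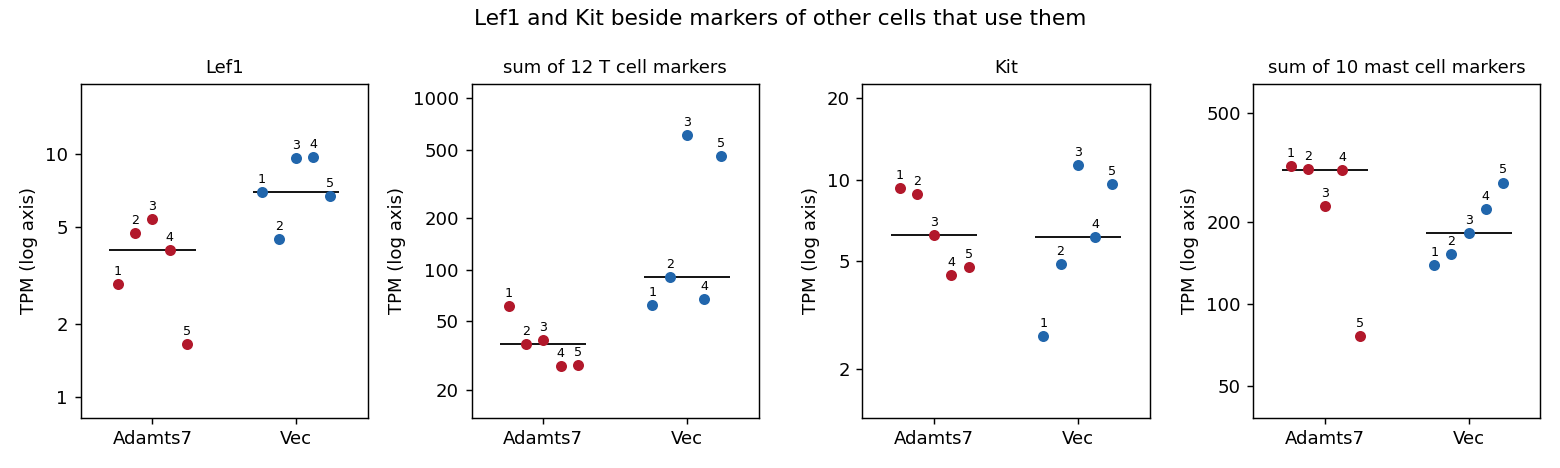
TPM on a log axis of Lef1, the sum of 12 T cell markers, Kit and the sum of 10 mast cell markers, in Adamts7 tumors (left, red) and vector tumors (Vec, right, blue), numbered, with a line at the median. The T cell sum does not overlap between the groups (27.6 to 61.5 against 62.0 to 606 TPM), while the mast cell sum and Kit do.

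Ednrb, the endothelin receptor of melanoblasts, was at 12.7, 6.85, 5.83, 4.46 and 4.85 TPM across Adamts7 tumors 1 to 5, against 5.08, 6.15, 2.72, 3.48 and 2.39 TPM in vector tumors 1 to 5. The top 2 values were those of Adamts7 tumors 1 and 2, and vector tumors 3, 4 and 5 lay below all Adamts7 tumors. The log2 difference was 0.65 (SE 0.29, limma adjusted p = 0.246), and 0.37 (SE 0.31, adjusted p = 0.675) without vector tumors 3 and 5. Endothelial markers summed to 59.7 to 135 TPM in Adamts7 tumors and 72.1 to 153 TPM in vector tumors, with 0 of 10 called and a median log2 difference of -0.28, or -0.12 without vector tumors 3 and 5. Emcn and Tek, both endothelial surface proteins, had differences of -0.81 (SE 0.24, limma adjusted p = 0.138) and -0.65 (SE 0.28, adjusted p = 0.232).

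None of the 8 genes passed the threshold of 0.05 adjusted over all 15276 genes tested, where limma called 0.223% of genes in either direction. It called 0.0262% of genes higher and 0.196% lower. At an unadjusted p under 0.05, limma had 3 of the 8, Pax3, Lef1 and Ednrb, against 20.2% of all genes tested. In the authors' deposited table, 0 of the 8 had an adjusted p under 0.05, against 7.96% of 18796 genes with one. The same 3 had an unadjusted p under 0.05 there. No share of all genes at that threshold was obtained, so this count cannot be read as a result. In the authors' deposited table, whose fold changes run Adamts7 over vector, the log2 fold change was 0.70 for Pax3, 0.90 for Ednrb and -0.87 for Lef1, with adjusted p-values of 0.119, 0.0918 and 0.0904. None of the 8 separated the groups without overlap, against 4.89% of all genes tested. The log2 differences were positive for 7 genes and negative for Lef1, with a median of 0.54 beside -0.10 over all genes tested. Without vector tumors 3 and 5 they were positive for 3 genes, Pax3, Kit and Ednrb, and negative for 5, with a median of -0.10.

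**Figure D3:**
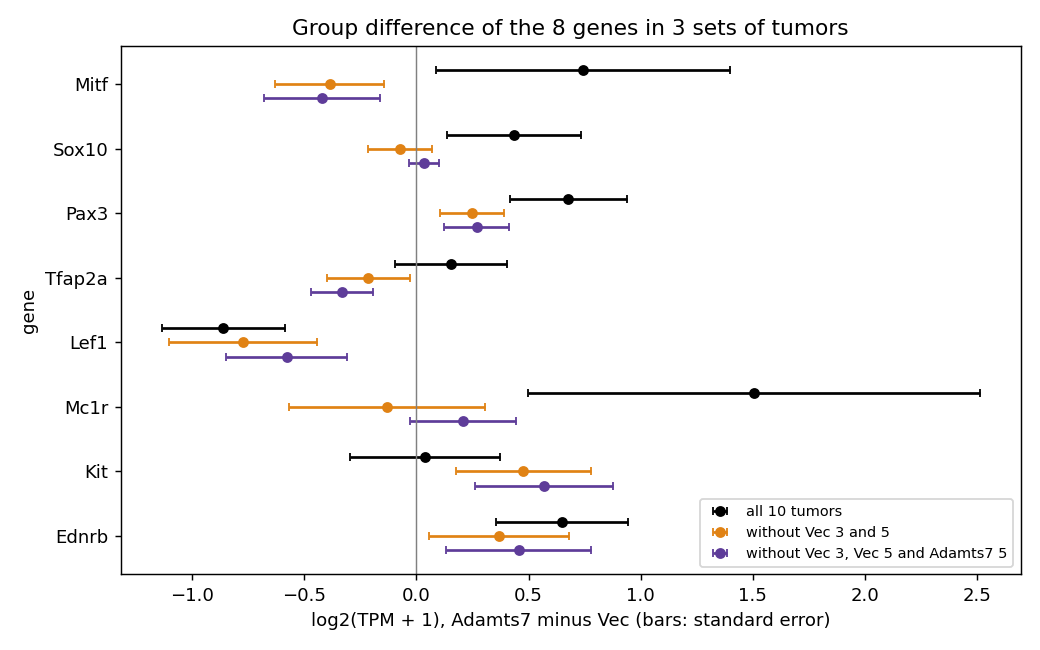
Log2(TPM + 1) difference, Adamts7 minus vector, of each of the 8 genes with its standard error, in all 10 tumors (black), without vector tumors 3 and 5 (orange), and without these and Adamts7 tumor 5 (purple). Mitf and Tfap2a lie above 0 with all tumors and below 0 in both smaller sets, while Lef1 stays below 0 and Pax3, Kit and Ednrb above 0 in the 3 sets.

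Harvest day could not be assigned to tumors, so differences were obtained for each of the 100 sets of 3 Adamts7 and 3 vector tumors that could be those of day 45. The difference was positive for Pax3 and Ednrb, and negative for Lef1, in all 100 sets. It was positive in 89 sets for Mitf, 94 for Sox10, 94 for Mc1r, 74 for Tfap2a and 54 for Kit. Pax3 passed the threshold in 2 of the 100 sets and no other of the 8 in any. The sets share tumors, and which of them is that of day 45 is unknown. No share of all genes keeping their sign in every set, or passing in any, was obtained. These counts thus describe the same tumors again, and the part of harvest day in the differences was not tested.

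By mean TPM over the 10 tumors the order was Sox10 with 602 ± 179, Mitf with 176 ± 87.8, Mc1r with 84.2 ± 52.8, Pax3 with 55.7 ± 17.6, Tfap2a with 44.0 ± 12.1, Kit with 6.84 ± 2.80, Lef1 with 5.62 ± 2.65 and Ednrb with 5.45 ± 2.92 TPM (SD, n = 10). Sox10 exceeded Mitf, Mitf exceeded Mc1r and Tfap2a exceeded Kit in 10 of 10 tumors. Mc1r exceeded Pax3 in 7 tumors, but not in Adamts7 tumor 5 or vector tumors 3 and 5. Pax3 exceeded Tfap2a in 8, Kit exceeded Lef1 in 8 and Lef1 exceeded Ednrb in 4, and the means of these neighbours, as of Mc1r and Pax3, differed by less than the larger of their SDs.

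The levels in vector tumors 3 and 5 were graded from gene to gene. Against the median of the 10 tumors, vector tumor 3 held 0.385 of the Sox10 level, 0.370 of Pax3, 0.600 of Tfap2a, 0.548 of Ednrb, 0.107 of Mitf and 0.0139 of Mc1r. Vector tumor 5 held 0.446 of Sox10, 0.469 of Pax3, 0.577 of Tfap2a, 0.481 of Ednrb, 0.274 of Mitf and 0.158 of Mc1r. Both thus kept more of Sox10 and Pax3 than of Mitf, and more of Mitf than of Mc1r. Kit and Lef1 went the other way, at 1.83 and 1.89 times their medians in vector tumor 3 and 1.56 and 1.32 times in vector tumor 5.

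Set against Sox10 in the same tumor, the other genes fell into separate patterns. Mitf minus Sox10 on the log2(TPM + 1) scale was -1.84 ± 0.50 in Adamts7 tumors and -2.15 ± 0.96 in vector tumors (SD, n = 5 each), with -3.64 in vector tumor 3. Mc1r minus Sox10 was -2.83 ± 0.63 in Adamts7 tumors and -3.9 ± 1.8 in vector tumors, with -6.88 in vector tumor 3 and -4.31 in vector tumor 5. Pax3 minus Sox10 stayed between -3.56 and -2.96 in Adamts7 tumors and between -3.92 and -3.36 in vector tumors. For Pax3, unlike Mitf and Mc1r, vector tumor 3 lay within the range of the other 9 tumors.

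Lef1 minus Sox10 was -7.55 to -6.80 in Adamts7 tumors, against -6.92 to -4.67 in vector tumors, and only vector tumor 2 lay within the range of the Adamts7 tumors. Kit minus Sox10 was highest in vector tumors 3 and 5, at -4.45 and -4.86, against -7.03 to -6.14 in the Adamts7 tumors. These are descriptions with no test, and Sox10 is itself lower in those 2 tumors.

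**Figure D4:**
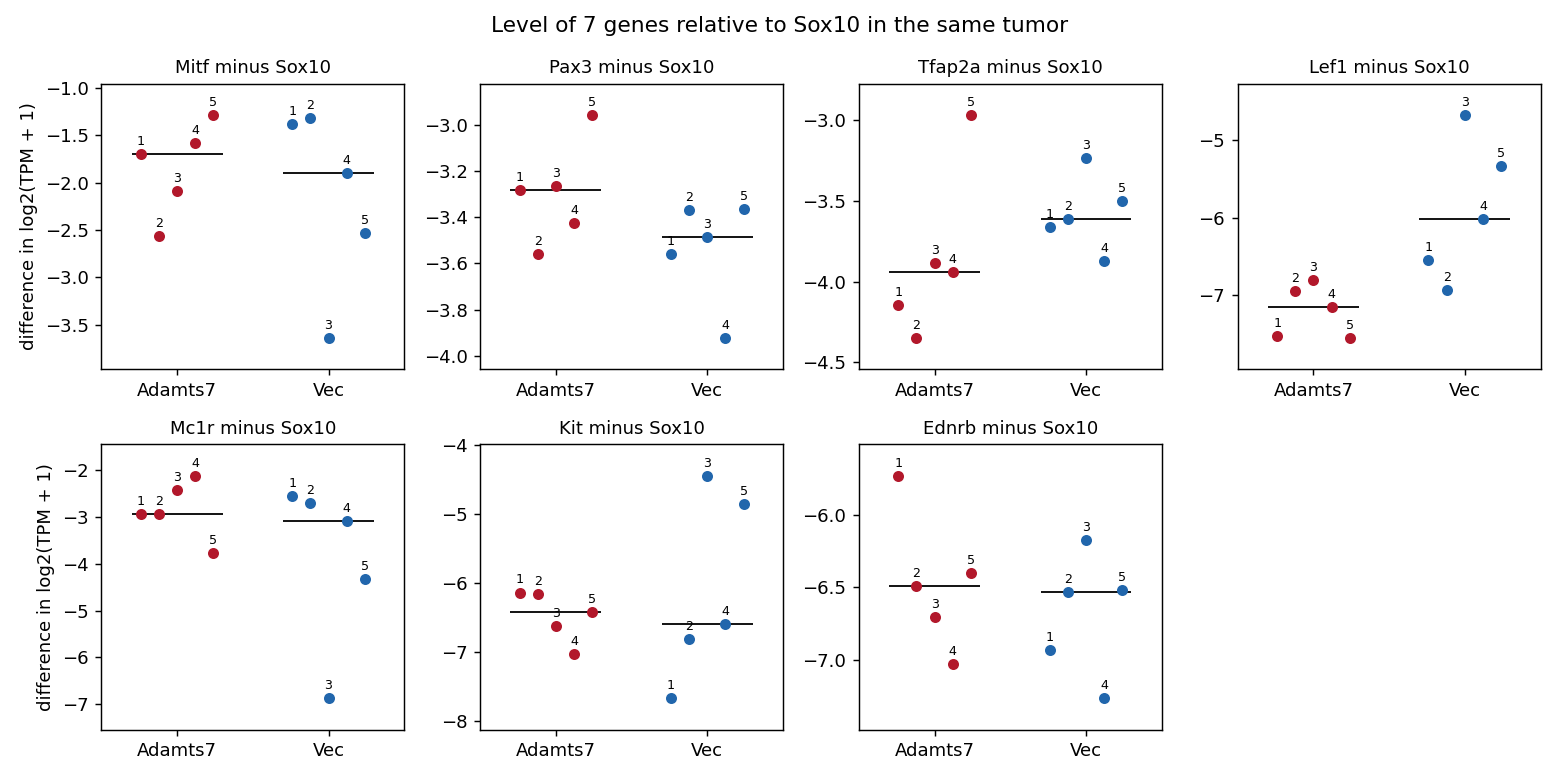
Log2(TPM + 1) of 7 genes minus that of Sox10 in the same tumor, for Adamts7 tumors (left, red) and vector tumors (Vec, right, blue), numbered, with a line at the median. Vector tumor 3 is lowest for Mitf (-3.64) and Mc1r (-6.88) and highest for Lef1 (-4.67) and Kit (-4.45).

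Many targets of Mitf and Sox10 lay further below their medians in vector tumor 3 than the factors themselves. Pmel, a melanosome fibril protein, was at 7121, 4524, 6285, 8390 and 3424 TPM across Adamts7 tumors 1 to 5, against 2431, 4380, 6.13, 1107 and 274 TPM in vector tumors 1 to 5. In vector tumor 3, Pmel was at 0.00157 of its 10-tumor median, Dct and Tyr, enzymes of melanin synthesis, at 0.00117 and 0.00113, Tyrp1 at 0.00214 and Mlana at 0.0136. Others of the list did not share this: Cdh1 was at 2.36 times its median in that tumor, Bcl2 at 1.88 times and Mcam at 0.828, named after their values were seen. Of 21 such targets, 15 were below 10% of their median in vector tumor 3, 2 in vector tumor 5 and 0 in each of the other 8 tumors. The 15 include Cdh3, which had a median of 0.135 TPM and never exceeded 0.58 TPM, so its 0 TPM in vector tumor 3 is near the floor. Pmel, Dct, Tyr, Tyrp1 and Mlana were the markers set for the melanocyte lineage. In vector tumor 3 these 5 were between 0.21 and 7.16 TPM beside 269 TPM of Sox10, and in vector tumor 5 between 29.0 and 683 TPM.

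Of the 20 targets tested, 17 had positive and 3 negative log2 differences, with a median of 1.52, and 0 passed or separated the groups. Without vector tumors 3 and 5, 12 were positive and 8 negative, with a median of 0.29. Ppargc1a, a coactivator of mitochondrial genes, had a difference of 1.6 (SE 0.60, limma adjusted p = 0.192) and Pmel one of 3.59 (SE 1.45, adjusted p = 0.211). Without those 2 tumors they were 0.60 (SE 0.33) and 1.31 (SE 0.44, adjusted p = 0.280).

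**Figure D5:**
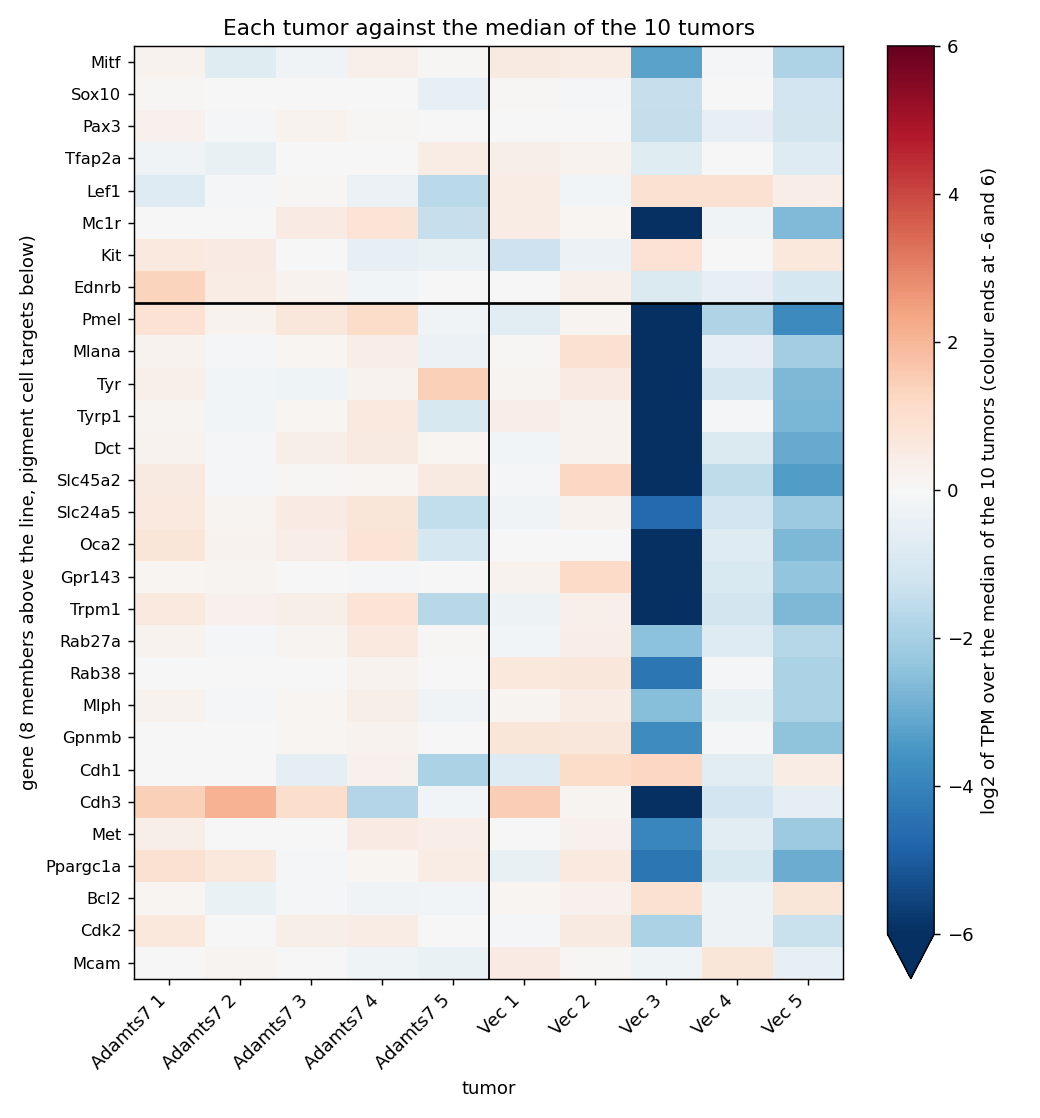
Log2 of TPM over the median of the 10 tumors for the 8 genes (above the line) and 21 pigment cell targets of Mitf and Sox10 (below it), with Adamts7 tumors left of vector tumors (Vec). Vector tumor 3 is darkest blue for Mc1r and most pigment targets, vector tumor 5 is paler, and Sox10, Pax3 and Tfap2a are pale in both. Cdh3 never reached 1 TPM.

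Ligands for the 3 receptors were measured in the same tumors. Kitl, which encodes stem cell factor, was at 88.8, 77.9, 51.6, 72.1 and 21.4 TPM across Adamts7 tumors 1 to 5, against 62.1, 51.8, 17.2, 45.0 and 25.3 TPM in vector tumors 1 to 5. Its lowest values were in vector tumors 3 and 5 and Adamts7 tumor 5, and its log2 difference was 0.61 (SE 0.43, limma adjusted p = 0.421), or 0.10 without vector tumors 3 and 5. Ece1, which cleaves endothelin precursors, had a difference of -0.87 (SE 0.36, adjusted p = 0.219), or -0.56 without them. Edn3, the endothelin that acts on Ednrb in melanoblasts, never exceeded 0.33 TPM. Edn1, another endothelin gene, was between 0.18 and 1.35 TPM in Adamts7 tumors and between 0.22 and 2.32 TPM in vector tumors. Its highest values, 2.32 and 2.02 TPM, were in vector tumors 3 and 5. With a mean of 0.878 TPM it was not tested. Pomc, the precursor of melanocyte-stimulating hormone, was between 3.79 and 5.93 TPM in Adamts7 tumors and between 2.33 and 5.74 TPM in vector tumors. Edn1, Edn3 and Pomc were named after their values were seen. Of 9 genes in this list, 7 had a value, 3 were tested and 0 passed; Edn2 and Asip were not analysed here.

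Close relatives of the 8 genes mostly had negative log2 differences. Of 11 tested, 2 had positive and 9 negative differences, with a median of -0.39, and 0 passed. The counts were 5 and 6, with a median of -0.08, without vector tumors 3 and 5. Tcf7l1, a repressive relative of Lef1, was at 10.9, 10.3, 12.8, 11.5 and 13.9 TPM across Adamts7 tumors 1 to 5, against 18.4, 27.7, 57.4, 16.7 and 27.6 TPM in vector tumors 1 to 5. The groups did not overlap, as for 3.78% of all genes tested in this direction, and the difference was -1.12 (SE 0.28, limma adjusted p = 0.108), or -0.75 without vector tumors 3 and 5. Tcf7, a relative of Lef1 that T cells also make, had a difference of -0.43 (SE 0.18, adjusted p = 0.226), or -0.18 without them.

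Among 12 tested transcription factors of the lineage outside the 8, 5 had positive and 7 negative differences, with a median of -0.17, or -0.06 without vector tumors 3 and 5, and 0 passed. Snai2, a zinc finger factor of neural crest migration, was at 5.88, 5.70, 4.86, 4.98 and 6.71 TPM across Adamts7 tumors 1 to 5, against 9.29, 8.28, 18.0, 11 and 16.2 TPM in vector tumors 1 to 5. All Adamts7 tumors lay below all vector tumors, as for 3.78% of all genes tested in this direction. The difference was -0.98 (SE 0.21, limma adjusted p = 0.0840), or -0.67 without vector tumors 3 and 5. Creb1, which encodes the cAMP response factor CREB, was at 27.2 ± 2.76 TPM in Adamts7 tumors and 21.1 ± 1.01 TPM in vector tumors (SD, n = 5 each), again without overlap, as for 1.11% of all genes tested in the higher direction. Its difference was 0.35 (SE 0.10, adjusted p = 0.135), or 0.31 without them.

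Genes induced by interferon-gamma and most macrophage markers were highest in the 2 tumors with the lowest Mitf. The 15 interferon-gamma genes summed to 539 to 963 TPM in Adamts7 tumors and 1570 to 5724 TPM in vector tumors, with the highest sums, 5724 and 5124 TPM, in vector tumors 3 and 5. Of these, 4 fell with p adjusted over all genes, and all 15 separated the groups without overlap, against 3.78% of all genes tested in the lower direction. The 4 were Tgtp1, Iigp1 and Irgm1, GTPases of immunity, and Gbp4, a guanylate-binding protein, with log2 differences of -2.66, -2.44, -1.69 and -3.13 (SE 0.37, 0.38, 0.28 and 0.52; limma adjusted p = 0.0270, 0.0339, 0.0481 and 0.0464). Without vector tumors 3 and 5 the 15 still did not overlap, against 7.32% of all genes in that direction. Of the 15, 1 passed, Irgm1 with -1.22 (limma adjusted p = 0.0343), and the median difference was -1.46 against -2.25 with all tumors. Macrophage markers summed to 424 to 2012 TPM in Adamts7 tumors and 808 to 3180 TPM in vector tumors, where the highest, 3180 and 2842 TPM, were again tumors 3 and 5. Most of those sums came from C1qa, C1qb and C1qc. Cd68, a lysosomal protein, was at 0.422 and 0.413 of its median in vector tumors 3 and 5, and Mertk, an engulfment receptor, at 0.844 and 0.842; these 5 genes were named after their values were seen, C1qb excepted. Of 10 macrophage markers 2 had positive and 8 negative differences, with a median of -0.61, against 7 and 3 with a median of 0.07 without vector tumors 3 and 5. None was called in either set, and Csf1r and C1qb had differences of -0.79 (SE 0.53) and -0.75 (SE 0.55), with limma adjusted p-values of 0.404 and 0.435. The part of these cells in the levels of the 8 genes was not tested.

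The genes whose order of the 10 tumors came closest were found for each of the 8 by the mean shift in rank, where 0 is the same order and 2 unrelated orders give 3.3 on average. For Mitf they were Hif1an with a shift of 0.2 and Wdr35 and Hcfc1 with 0.4 each, and for Sox10 they were Pcnx with 0.2 and Raver1 and Adssl1 with 0.4 each. For Pax3 they were Nav2 with 0.4 and Rapgef4 and Polr1b with 0.6 each, and for Tfap2a Dip2b with 0.4 and Nek2 and Tulp3 with 0.6 each. For Lef1 they were Tspan17, Limch1 and Usp35 with 0.6 each, and for Mc1r they were Pgap2 with 0 and Rcc2 and Bbln with 0.2 each. Kit was matched by Dkk2 with 0 and by Camk2a and Klf4 with 0.2 each, and Ednrb by Ccn2 and Epor with 0.4 each and Mcrip2 with 0.6. These were picked from 15276 genes, so small shifts come by selection and are a description only.

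Among the 28 pairs of the 8 genes, the closest orders were those of Mc1r with Pax3 and of Mc1r with Sox10, with a mean shift of 1.4 places each, followed by Mitf with Sox10 and Pax3 with Ednrb at 1.6. The farthest were Lef1 with Pax3 and Kit with Tfap2a, at 4.8 each. Lef1 and Kit stood 2.6 apart from each other and at least 3.4 from each of the other 6 genes.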

How the data were processed

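RNA from 10 tumors, 5 per group by title, was read from the authors' table of log2(TPM + 1) per gene symbol, which the authors deposited with RSEM and mm39 named in the submitters' processing notes. TPM was recovered from these log2 values, and it summed to between 995286 and 998019 per tumor. How reads were aligned, the annotation, and any use of the spike-ins or molecular identifiers are not given in the sources used here. Because TPM is scaled within a library, abundant genes lower all others, and its depth is unknown. A table of the comparison that the authors deposited holds, per gene ID, a normalized signal averaged over tumors, log2 fold change, a test score and a p-value, and the submitters' processing notes name DESeq2. Of its 30040 IDs, 28805 matched a symbol. Of its 1496 called genes, 1427 could be matched to the TPM table, and 1427 of these had the sign of Adamts7 minus vector in TPM.

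The 15276 genes averaging 1 TPM or more entered limma 3.58.1 (R 4.3.3) as log2(TPM + 1), in a trended fit on group alone, and p-values were Benjamini-Hochberg adjusted over them all. This scale understates changes of low genes. Descriptions came from pandas 2.3.3 under Python 3.11.15. On simulated data of 15276 genes in this comparison, limma found 54.5%, 84.5% and 92.6% of the genes given log2 changes of 1, 2 and 3. False calls averaged 7.9 genes. In the simulation each gene varied independently, with no tumor shifted as a whole, and the shares are averages over genes. They need not hold for genes as variable as Mitf and Mc1r. P-values measure the spread between tumors. No pair of tumors was identical. Members, lists and tests were chosen with earlier results of these data known. Named genes were the 8, Adamts7, called list genes or else the 2 with the smallest p in a list, and the 3 closest in tumor order; lineage markers Mlana, Tyr, Tyrp1 and Dct were also named, as were Krt5, Krt14 and Cdh3, picked after their values were seen. Alternatives were other pseudocounts, filters, scalings, variance models, weights, a replicate block and tumors left out. The deposited table of antigen receptor repertoires was not used.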

Additional observations from a re-analysis of the deposited data

Results flagged for a closer look

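Sox10 in the library labelled Adamts7 5, at 494 TPM against 705 to 725 TPM in the other 4 Adamts7 tumors, lay far from its group: its gap to the nearest tumor took 0.927 of the group's range in log2(TPM + 1). Adamts7 in the same library, at 18.2 TPM against 74.8 to 96.0 TPM, had a gap of 0.848 of the range. These were 2 of 18 groups examined, and chance flags about 1 group in 20.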

How the results depend on the processing

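No count of the 8 genes past the threshold differed from 0 in any single alternative; over the 100 possible sets of day 45 the highest was 1. The number not overlapping was 1 under median-of-ratios scaling and quantile normalization (Pax3, beside 2.47% and 2.63% of all genes in that direction), and 0 to 1 with each tumor left out (Lef1 without vector tumor 2, beside 5.70%). In the day 45 sets it was up to 5, the highest over 100 sets. Groups of 3 separate more easily, and no share over all genes was obtained for these sets, so that number cannot be read as a result. Mitf turned to -0.082 with tumor weights, -0.39 without vector tumors 3 and 5, -0.42 with Adamts7 tumor 5 left out as well, and -0.60 in the lowest day 45 set. Tfap2a turned to -0.15, -0.21, -0.33 and -0.39 in the same order. Without vector tumors 3 and 5 Sox10 was -0.072 and Mc1r -0.13, and with Adamts7 tumor 5 left out as well they were 0.03 and 0.21; in their lowest day 45 sets they were -0.15 and -0.58. Kit turned with 4 single tumors left out, between -0.21 and 0.23 over all 10, and to -0.68 in its lowest day 45 set. With each tumor left out, the ranges were 0.15 to 1.08 for Mitf, 0.22 to 0.58 for Sox10, 0.48 to 0.83 for Pax3, 0.01 to 0.28 for Tfap2a, -1.01 to -0.67 for Lef1, 0.54 to 1.99 for Mc1r and 0.43 to 0.80 for Ednrb. Over 21 alternatives the smallest adjusted p was 0.105, for Lef1.

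Over all genes, 4 were called higher and 30 lower. Counts higher were 1 with no filter, 2 with a mean of at least 5 TPM, 8 under median-of-ratios scaling, 10 under quantile normalization, 8 without trend, 263 with tumor weights, 2 without vector tumors 3 and 5, 197 with Adamts7 tumor 5 left out as well, and 0 to 614 in the day 45 sets. Counts lower were 9 with no filter, 956 with tumor weights, 603 without vector tumors 3 and 5 and Adamts7 tumor 5, and 0 to 1315 in the day 45 sets. Leaving out single tumors gave 0 to 171 higher and 5 to 484 lower, with the most without Adamts7 tumor 5. Quantile normalization moved the median difference of all genes from -0.10 to 0.04, and median-of-ratios scaling to 0.01. The replicate block gave 0 higher and 0 lower. Deviations of same-numbered tumors correlated between -0.28 and 0.26. The labels state no pairing, and these correlations cannot settle whether the numbers pair the tumors. The cause of these changes was not tested. TPM gives no depth, so counting error of low genes such as Edn3 is unknown.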

Other observations

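Neural crest-like genes and genes of Schwann cells, which also need Sox10, were measured as lists. The neural crest-like list had 3 positive and 7 negative log2 differences among 10 tested, with a median of -0.11 and 0 called, against 8 and 2 with a median of 0.17 without vector tumors 3 and 5. Jun, an AP-1 factor, and Nes, an intermediate filament of progenitors, had differences of 0.38 (SE 0.13, limma adjusted p = 0.176) and -0.26 (SE 0.22, adjusted p = 0.492). The summed level of the list was 651 to 1770 TPM in Adamts7 tumors and 743 to 3885 TPM in vector tumors, where vector tumors 3 and 5 held 3885 and 3519 TPM. Most of those sums was Aqp1, a water channel gene named after its values were seen, at 3272 and 2912 TPM. Of 10 Schwann cell markers 1 had a positive and 9 a negative difference, with a median of -0.41 and 0 called; without vector tumors 3 and 5 the median was -0.17. Mbp, a myelin protein, had a difference of 1.23 (SE 0.55, limma adjusted p = 0.242), and Pmp22, another myelin protein, one of -0.29 (SE 0.14, adjusted p = 0.252). The Schwann cell sum was 402 to 528 TPM in Adamts7 tumors and 485 to 824 TPM in vector tumors.

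Fibroblast markers summed to 397 to 1985 TPM in Adamts7 tumors and 506 to 1663 TPM in vector tumors, with 3 positive and 7 negative differences, a median of -0.25 and 0 of 10 called; without vector tumors 3 and 5, 7 were positive and 3 negative, with a median of 0.22. Fap, a fibroblast surface protease, had a difference of 0.64 (SE 0.30, limma adjusted p = 0.257), and Lum, a matrix proteoglycan, one of -1.21 (SE 0.58, adjusted p = 0.266).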
